A study of Mus musculus with 6 samples.

Results

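Committing neuronal precursors are cells that have begun to leave the neural progenitor state but do not yet carry the transcripts of a motor neuron. Here they were chosen by measured transcripts: a cell barcode with at least 1000 genes and at most 10% mitochondrially encoded UMIs (molecular barcodes that let copies of the same RNA molecule be counted once) was a member if it held at least 1 UMI of Neurod4, at least 1 of Neurog2 and 0 of Mnx1 and Isl1. The rule found 577 cells among 16225 that passed the filter on genes and mitochondrial UMIs, which is 3.56%, out of 24215 barcodes. Their source was day 6 embryoid bodies, grown towards motor neurons from HB9::GFP mouse ES cells, whose fluorescent reporter lights up motor neurons. Polyadenylated RNA was sequenced in droplets in 6 libraries. WT 1 and WT 2 were wild type, DeltaSP 1 and DeltaSP 2 carried the genotype lncMN2_SP-/- and KO 1 and KO 2 the genotype lncMN2-/-, both made with CRISPR/Cas9 in the same reporter line. The study asked what loss of function at this long non-coding RNA locus does to the differentiating cells. Every library is a single clone. The p-values therefore rest on library-to-library spread, where clone, preparation and depth cannot be told apart.

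In the embryonic spinal cord, progenitors that raise the proneural factor Neurog2, a basic helix-loop-helix activator of neuronal differentiation, go on to express its target Neurod4 and the Notch ligands Dll1 and Dll3. The ligands act on neighbouring cells, in which Notch effectors of the Hes family hold differentiation back, while Hes6 opposes Hes1 within the committing cell. In the motor neuron lineage Olig2 marks the progenitors and promotes Neurog2, and Mnx1 (HB9) and Isl1 appear in postmitotic motor neurons.

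Proneural factors bind the E-box motif CANNTG, of which CAGCTG and CAGATG are common forms. RefSeq promoter windows (GRCm38.p6, 250 bases before to 50 after the gene start) were searched for both forms on both strands, and neither motif overlaps the other. The genes shown are the gating and marker genes with a match and the other genes with a match among the 12 named below as highest against Olig2 progenitors. Each sequence is 30 bases, read in the direction of its gene, with the motif in capitals.
Neurod4, chr10:130280117-130280146, minus strand, from 4 bases after the start: gacatagaaaacCAGCTGtggtggaggcac
Dll1, chr17:15377047-15377076, minus strand, 132 bases before the start: tgcattaccataCAGCTGagcgcacaaaga
Dll3, chr7:28301775-28301804, minus strand, 7 bases before the start: tccggcatccagCAGCTGcgactcctgaga
Hes6, downstream start, chr1:91413355-91413384, minus strand, 150 bases before it: gctccgccccgcCAGCTGccagagacccgc
Hes6, upstream start, chr1:91414192-91414221, minus strand, 171 bases before it: cggaagcggctgCAGCTGccaactgtcacg
Gadd45g, chr13:51846608-51846637, plus strand, 55 bases before the start: gcagcctcccgcCAGCTGgcggcggcgcgc
Srrm4, chr5:116591958-116591987, minus strand, 158 bases before the start: gcttttgttatgCAGATGgcggcgggaggc
Ppp1r14a, chr7:29289123-29289152, plus strand, 185 bases before the start, CAGATG on the other strand: cccgcccccaccCATCTGaacccccgcagg
Of the 12 genes, 10 had a promoter entry, with 12 windows in all. CAGCTG stood in the windows of 4 of them and CAGATG in those of 2, so that 7 of 12 windows, or 58.3%, held either motif. Over all 32851 promoter windows of the same length, 16.3% held CAGCTG, 17.2% CAGATG and 30.6% either. Neither string was present in the Neurog2 window.

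The genes behind these cells lie apart in the genome (GRCm38). Neurod4 is on chromosome 10 (130268152 to 130280240, minus strand), Neurog2 on chromosome 3 (127633135 to 127635631, plus strand), Dll1 on chromosome 17 (15367354 to 15376872, minus strand), Dll3 on chromosome 7 (28293553 to 28302238, minus strand) and Hes6 on chromosome 1 (91411483 to 91414038, minus strand).

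Library totals ran from 24191242 to 49061693 UMIs. WT 1 stood apart in depth: its precursors held a median of 3907 UMIs, against 13109 to 17374 in the other 5 libraries, and its kept cells 4157 against 11898 to 15112. The summed UMIs of the precursors, which all tests below use, were 372487 in WT 1, 724555 in WT 2 and 1499087 to 2229895 in the edited libraries. No precursor barcode was shared between libraries, and no pair of libraries shared more than 6 kept barcodes. Summed marker levels were at or near 0 for other germ layers. Pluripotent markers summed to at most 1.90 CPM (UMIs of a gene scaled to the same total in every library) with Pou5f1 and Nanog at 0 everywhere, mesoderm markers to 2.68 CPM in WT 1 and at most 8.85 CPM elsewhere except DeltaSP 1 (18.002 CPM), endoderm and blood or endothelial markers to at most 2.76 CPM each, neural crest markers to 12.1 to 23.5 CPM, dorsal markers to 4.14 to 10.7 CPM, glial markers to 6.90 to 16.4 CPM and germ cell markers to at most 13.3 CPM.

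Taking replicate 1 before replicate 2, there were 85 and 41 precursors in WT, 85 and 156 in DeltaSP, and 108 and 102 in KO. They made up 1.89% (exact 95% binomial interval 1.51 to 2.33) and 2.54% (1.83 to 3.43) of the kept WT cells, 3.72% (2.98 to 4.58) and 4.33% (3.69 to 5.05) of the DeltaSP cells, and 5.07% (4.18 to 6.09) and 4.86% (3.98 to 5.87) of the KO cells. The intervals cover counting error only. WT libraries were lowest and KO libraries highest, and the 3 genotypes did not overlap. Mean shares were 2.22% ± 0.463 in WT, 4.03% ± 0.430 in DeltaSP and 4.97% ± 0.153 in KO (SD, n = 2 each). KO exceeded WT by 2.75 percentage points, DeltaSP exceeded WT by 1.81 and KO exceeded DeltaSP by 0.938. The two-sided exact permutation p was 0.333 for each, the smallest that 2 libraries against 2 allow.

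Depth bears directly on this share, since a cell with more UMIs is more likely to show 1 of Neurod4. After every cell was thinned to 3000 UMIs, which dropped 936 shallower cells from WT 1 and between 56 and 201 from every other library, the share was 1.88% and 1.46% in WT, 2.29% and 2.68% in DeltaSP and 2.70% and 2.55% in KO. All 4 edited libraries stayed above both WT libraries, while DeltaSP and KO overlapped. The differences from WT shrank to 0.959 points for KO and 0.816 for DeltaSP, and KO against DeltaSP to 0.142 with an exact permutation p of 0.667.

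**Figure D1:**
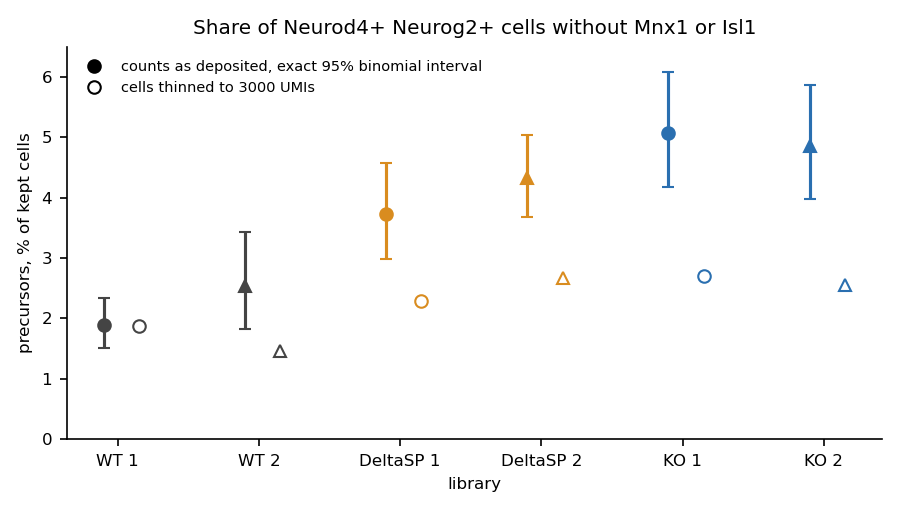
Share of precursors among kept cells (%) in each of the 6 libraries, filled symbols for counts as deposited with exact 95% binomial intervals and open symbols after thinning each cell to 3000 UMIs. Shares ran from 1.89% in WT 1 to 5.07% in KO 1, and after thinning from 1.46% in WT 2 to 2.70% in KO 1.

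Cells that held both Neurod4 and Neurog2 were more often found together with Mnx1 or Isl1 than without. There were 1723 of them, and these are not members. Taken with the precursors, all double-positive cells made up 7.20% and 11.8% of kept cells in WT, 17.5% and 16.7% in DeltaSP and 19.1% and 18.05% in KO, again with no overlap between WT and the edited libraries. The part of all double-positive cells that lacked both motor neuron transcripts was 26.2% and 21.5% in WT, 21.3% and 26.0% in DeltaSP and 26.6% and 26.9% in KO. That proportion overlapped between WT and DeltaSP, and the higher WT library lay next to the KO libraries.

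At the threshold of the rule, 59 precursors (10.2%) held exactly 1 UMI of each gating gene, 17 of them in WT 1. Median counts per cell were 1 to 2 UMIs of Neurod4 and 2 to 8 of Neurog2. Just outside the rule, 1 UMI of Mnx1 and Isl1 together kept out 66 WT 1 cells and 12 to 52 in each other library. Cells with at least 2 UMIs of Neurog2 and none of Neurod4 numbered 95 to 366 per library, and cells with at least 2 of Neurod4 and none of Neurog2 numbered 6 to 26. Free RNA in droplets also bears on such gates. In cells with at least 10 UMIs of 8 mesoderm genes, Neurod4 was seen in 0% to 11.1% of cells per library and Neurog2 in 0% to 14.8%. Mnx1 was seen in 8.82% to 18.5% and Isl1 in 2.63% to 33.3%, the highest in WT 1 with 6 such cells. These cells are not a clean background, since Tubb3 was seen in 16.7% to 79.6% of them and Sox2 in 16.7% to 48.1%. Whether the transcripts came from free RNA or from the cells themselves was not tested. These comparison cells numbered 6 to 68 per library, with medians of 7026 to 23745 UMIs. No doublet caller was run. In each library 0 to 5 precursors were among the 5% of kept cells with the most UMIs.

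The markers that the rule did not use were checked next. Hes6 was seen in 473 of the 577 precursors (82.0%), Dll1 in 340 (58.9%) and Dll3 in 319 (55.3%). All 3 were seen together in 187 cells (32.4%) and none in 42 (7.28%). At 3000 UMIs per cell, Dll1 was seen in 23.8% to 33.6% of precursors per library, against 0.985% to 4.71% of Olig2 progenitors, 7.78% to 24.4% of cells with Mnx1 or Isl1 and a mean of 0% of the mesoderm comparison cells. For Dll3 the precursor range was 20.2% to 42.9% and the mesoderm mean 2.06%, and for Hes6 33.6% to 60.3% and 10.4%. Each of the 3 markers lay above the mesoderm mean in every library. In level, all 3 were higher than in Olig2 progenitors in all 6 libraries. Against cells with Mnx1 or Isl1 this held for Hes6 and Dll1 but not for Dll3, which thus does not set the precursors apart from those cells. What single cells later became was not measured.

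Precursors were set beside 4 other sets of kept cells, for which counts were summed per library and expressed as CPM. Olig2 progenitors (1787 cells) held Olig2 and 0 UMIs of the 4 gating genes, cells with Neurog2 alone numbered 2288, cells with Neurod4 alone 311 and cells with Mnx1 or Isl1 7395. Because the gate defines these sets, the contrasts are descriptions and were not tested.

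Dll1, Hes6, Neurog1 and Gadd45g had their highest median in the precursors, whereas Dll3, Srrm4 and Insm1 were higher in another set. Dll1, the ligand that activates Notch on neighbours, stood at 96.6 and 126 CPM in the WT libraries, 158 and 139 CPM in DeltaSP and 183 and 163 CPM in KO, with a median of 148 CPM. Its median was 11.0 CPM in Olig2 progenitors, 29.98 CPM with Neurog2 alone, 131 CPM with Neurod4 alone and 60.1 CPM in cells with Mnx1 or Isl1. The precursor libraries did not overlap those of Olig2 progenitors or of Neurog2 alone, and overlapped those of cells with Mnx1 or Isl1 only in that the highest of these stood at 100.8 CPM. Dll3, a ligand that stays mostly inside the cell, was higher at each step of the same order, with medians from 15.3 CPM in Olig2 progenitors to 38.5, 184 and 200 CPM with Neurog2 alone, in precursors and with Neurod4 alone, and to 340 CPM with Mnx1 or Isl1. Hes6 had medians of 52.5, 90.2, 265, 215 and 187 CPM in that order. The lowest precursor library held 209 CPM of Hes6 and the highest Olig2 progenitor library 84.1 CPM.

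Neurog1, a close relative of Neurog2, peaked in precursors with 110 CPM (64.4 to 163) against 3.06 CPM in Olig2 progenitors and 28.0 CPM with Mnx1 or Isl1. Gadd45g, a growth arrest and DNA damage gene, reached 951 CPM (659 to 1358) in precursors and 506 CPM with Mnx1 or Isl1. Mfng, a glycosyltransferase that modifies Notch receptors, had 149 CPM in precursors and 19.9 CPM in Olig2 progenitors. Insm1, a zinc finger factor of delaminating neuronal precursors, was instead highest with Neurod4 alone, at 164 CPM (71.7 to 255) against 60.2 CPM (25.3 to 119) in precursors, and these ranges overlap. Srrm4, a splicing factor of neuronal exons, was higher still in cells with Mnx1 or Isl1, at 184 CPM against 93.9 CPM in precursors and 6.96 CPM in Olig2 progenitors.

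By the naming rule, the 12 genes with the largest smallest-library ratio over Olig2 progenitors were Dll3, Srrm4, Rgs16, Dll1, Gadd45g, Btbd17, Neurog1, Ppp1r14a, Mfng, Hes6, Igfbpl1 and Plk3. Median log2 ratios among them ran from 2.24 for Hes6 to 4.99 for Neurog1. The 12 lowest were taken by the same smallest-library ratio, which for a fall is the most extreme library, so a single library can place a gene there. They included Nkx2-9, a ventral progenitor factor, with a median log2 ratio of -2.93. Id3, an inhibitor of basic helix-loop-helix factors, had -1.58, and Ntn1, an axon guidance cue of the floor plate, -1.49. Nkx2-9, Id3 and Ntn1 were each lower in all 6 libraries. Of 26 proneural and commitment factors at 20 CPM or more, 19 were higher than in Olig2 progenitors in all 6 libraries and 2, Sox12 and Id3, lower, with a median log2 ratio of 1.46. Against cells with Mnx1 or Isl1 the same list was split, with 10 of 31 higher in all 6 libraries, 12 lower and a median of -0.55. Over all 6575 genes of that level against Olig2 progenitors, 589 (8.96%) were higher in all 6 and 768 (11.7%) lower. Against cells with Mnx1 or Isl1, 1829 of 7079 genes (25.8%) were higher in all 6 and 2170 (30.7%) lower.

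Most progenitor and cycle transcripts measured were higher than in cells with Mnx1 or Isl1. Against cells with Mnx1 or Isl1, all 17 measured neural progenitor markers were higher in all 6 libraries, with a median log2 ratio of 0.997, as were 39 of 40 S phase genes (median 1.22) and 46 of 51 G2 and M phase genes (median 0.96). All 26 pan-neuronal markers were lower in all 6 libraries, with a median of -2.80. Over all 7079 genes, 1829 (25.8%) were higher in all 6 and 2170 (30.7%) lower. Stmn2, a microtubule regulator of growing axons, stood at 111 CPM in precursors and 1711 CPM with Mnx1 or Isl1, and Slc18a3, the vesicular acetylcholine transporter, at 6.67 and 332 CPM. Against Olig2 progenitors, 10 of 40 S phase genes were lower in all 6 libraries and 1, Rrm2, higher, with a median of -0.13, while of 51 G2 and M phase genes 1 was lower and 4 higher. The neural progenitor list was mixed. Notch1, Pax6, Prom1 and Tead2 were higher in all 6 libraries, while Sox2, Msi1, Fabp7, Rfx4 and Zfp36l1 were lower. Sox2, the main pan-neural progenitor factor, stood at 189 CPM (113 to 274) in precursors against 294 CPM (163 to 371). Mki67, a marker of cycling cells, was level between them, at 101.1 and 99.2 CPM. Hes5, a direct Notch effector, was not lower in the precursors, with 488 CPM (243 to 637) against 232 CPM (121 to 513) in Olig2 progenitors and 117 CPM with Mnx1 or Isl1. Id1 behaved unlike Id3, with 690 CPM in precursors against 256 CPM in Olig2 progenitors.

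**Figure D2:**
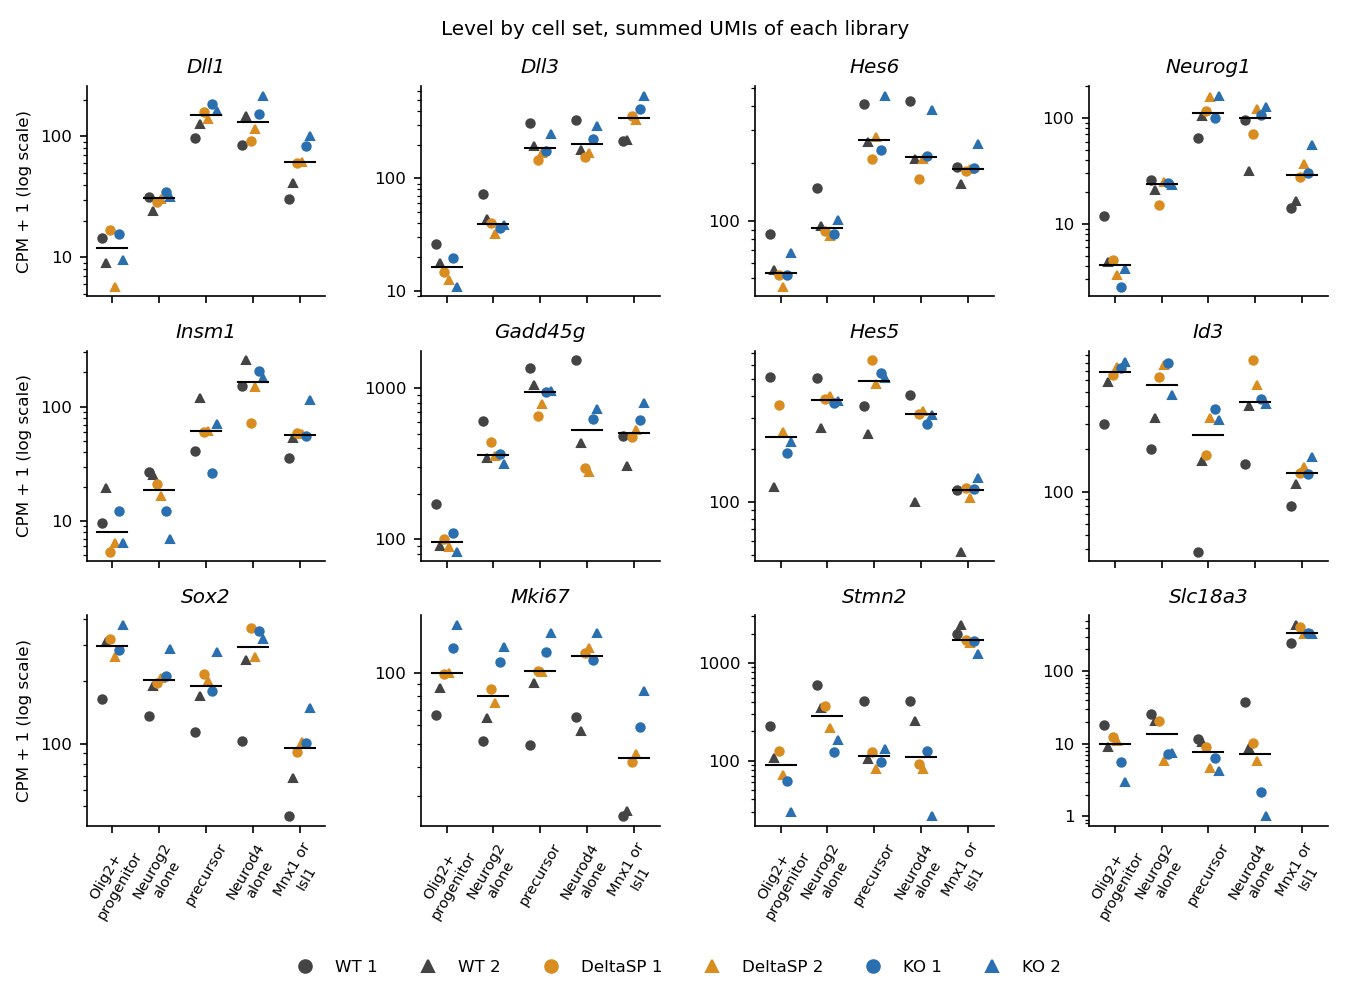
Levels of 12 genes (CPM + 1, log scale) in 5 cell sets, with 1 symbol per library and the median as a bar. Dll1, Neurog1 and Gadd45g have their highest median in the precursors, at 148, 110 and 951 CPM, whereas Dll3 and Stmn2 are highest in cells with Mnx1 or Isl1.

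The precursors varied among themselves. Sox2 and Tubb3, a tubulin of neurons, were seen together in 287 cells (49.7%), Sox2 alone in 148 (25.6%), Tubb3 alone in 105 (18.2%) and neither in 37 (6.41%). Mki67 or Top2a, both transcripts of cycling cells, was seen in 435 (75.4%). Olig2 was seen in 456 cells (79.0%), Lhx3, a motor neuron and V2 interneuron factor, in 146 (25.3%), and Nkx2-2, a factor of the more ventral p3 domain, in 22 (3.81%). Foxn4 or Vsx1, which mark V2 precursors, was seen in 42 (7.28%). WT 1 differed from the rest in several of these shares. Tubb3 without Sox2 was seen in 47.1% of its precursors against 8.82% to 21.3% elsewhere, and Mki67 or Top2a in 35.3% against 70.7% to 84.3%. Summed levels moved the same way. Neural progenitor markers summed to 2921 CPM in WT 1 and 4193 to 4989 CPM elsewhere, pan-neuronal markers to 3995 CPM against 1687 to 2362 CPM, and p3 or floor plate markers to 8.05 CPM against 105 to 135 CPM. The part of depth in these differences was not tested.

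Within each library, the precursors that held more Neurod4 than Neurog2 (53 cells, 4 to 14 per library) were compared with those that held more Neurog2 (441 cells, 28 to 126 per library), with the library as a block. Levels in this comparison and in those below are CPM scaled by TMM (trimmed mean of M values, a scaling for library composition). Of 3618 genes, 52 passed edgeR's quasi-likelihood test at a Benjamini-Hochberg adjusted p under 0.05 (1.44%), 38 higher in Neurod4-leaning cells (1.05%) and 14 lower (0.387%). Neurod4 and Neurog2 themselves defined both the membership rule and the split, and are not counted. The calls depend on that split: with gating after thinning to 3000 UMIs, 19 of the 20 named genes with a value lost their call. The Notch ligands Dll1 and Dll3 and the marker Hes6 were higher in the Neurod4-leaning cells, and so were Insm1, Neurog1 and the neuronal RNA-binding protein Elavl3.

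Insm1 in Neurod4-leaning and Neurog2-leaning cells stood at 60.1 and 23.6 scaled CPM in WT 1, 427 and 77.6 in WT 2, 581 and 28.4 in DeltaSP 1, 175 and 49.4 in DeltaSP 2, 41.7 and 23.6 in KO 1, and 313 and 46.0 in KO 2. It was higher with Neurod4 in all 6 libraries, though in DeltaSP 1 a single cell held 46 of the 89 Insm1 UMIs of the precursors. The log2 difference was 2.59 (SE 0.28, edgeR adjusted p = 2.3e-07). Dll3 was 361 against 278 scaled CPM in WT 1, 837 against 91.9 in WT 2, 482 against 98.01 and 629 against 140 in DeltaSP, and 240 against 149 and 538 against 199 in KO. All 6 differences pointed one way, with a log2 difference of 1.78 (SE 0.21, adjusted p = 1.6e-06). Dll1 was higher in all 6 libraries too, by 1.04 on the log2 scale (SE 0.16, adjusted p = 0.00021), with library means of 280 against 135 scaled CPM.

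Neurog1 was also higher in 6 of 6 libraries, by 1.61 (SE 0.15, adjusted p = 5.2e-08), with means of 309 against 104 scaled CPM. Elavl3 followed with 1.05 (SE 0.15, adjusted p = 3.8e-05). Hes6 was higher in 5 of 6 libraries, by 0.82 (SE 0.15, adjusted p = 0.0014), WT 1 being the exception. Ccnd1, the cyclin D1 of G1 phase, was higher by 2.96 (SE 0.30, adjusted p = 1e-07), in 5 of 6 libraries, but 1 cell held 59.4% of the Ccnd1 UMIs of WT 2 precursors. Of the 17 proneural and commitment factors tested, 6 rose and none fell, with a median log2 difference of 0.33 against -0.04 over all genes tested. The 6 are Insm1, Neurog1, Srrm4, Hes6, Sox11 and Btg2. Both Notch ligands tested rose, as did Mib1, the ligase that activates Dll1, by 0.82 (adjusted p = 0.033). The Mib1 call was lost without WT 2 (0.15), DeltaSP 1 (0.0727), DeltaSP 2 (0.122) or KO 2 (0.054), that of Srrm4 without WT 2 (0.0943) or DeltaSP 2 (0.213) and that of Btg2 without WT 2 (0.0681) or KO 2 (0.102). Of 33 S phase genes 1 rose, the ribonucleotide reductase subunit Rrm2 (adjusted p = 0.116 without DeltaSP 1), and of 39 G2 and M phase genes none passed.

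Genes that fell with Neurod4 included Stmn2, the growth factor response genes Egr1 and Dusp6, and the secreted Wnt modulator Sfrp2. The progenitor factor Sox3 fell too, as did Sox21, the latter in 5 of 6 libraries. Neural progenitor markers as a list were split. Of 15 tested, Pax6 rose and Sox3 fell, with 8 positive and 7 negative differences and a median of 0.08. The Pax6 call was lost without WT 1 (adjusted p = 0.131), WT 2 (0.0645), DeltaSP 2 (0.382) or KO 2 (0.12). With 1 library left out, Sox3 lost its call in all cases but that of KO 1 (adjusted p of 0.0573 to 0.179). Egr1 lost it without WT 1, DeltaSP 1, KO 1 or KO 2 (0.0845 to 0.278), and Dusp6 without WT 2, DeltaSP 1 or DeltaSP 2 (0.0711 to 0.123). Sfrp2 lost it without DeltaSP 2 (0.0521) and Sox21 without KO 1 (0.0742). Stmn2 was 120 against 401 scaled CPM in WT 1, 44.5 against 133 in WT 2, 24.7 against 108 and 47.8 against 88.6 in DeltaSP, and 36.5 against 94.4 and 19.6 against 133 in KO, lower in all 6 libraries by 1.62 on the log2 scale (SE 0.26, adjusted p = 0.00021). In WT 2, DeltaSP 1, KO 1 and KO 2 a single cell held 33.0% to 49.2% of the precursors' Stmn2 UMIs. Gadd45g (log2 0.11, adjusted p = 0.83), Olig2 (-0.31, 0.54), Tubb3 (0.26, 0.77), Hes5 (-0.19, 0.77) and Sox2 (0.31, 0.58) did not pass. Neurod4-leaning cells had a median of 11550 UMIs and Neurog2-leaning cells 13779. When cells were gated after thinning to 3000 UMIs, 2 genes passed in place of 52, and of the 20 named genes with a value 19 lost their call. Without DeltaSP 2 the count was 31.

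**Figure D3:**
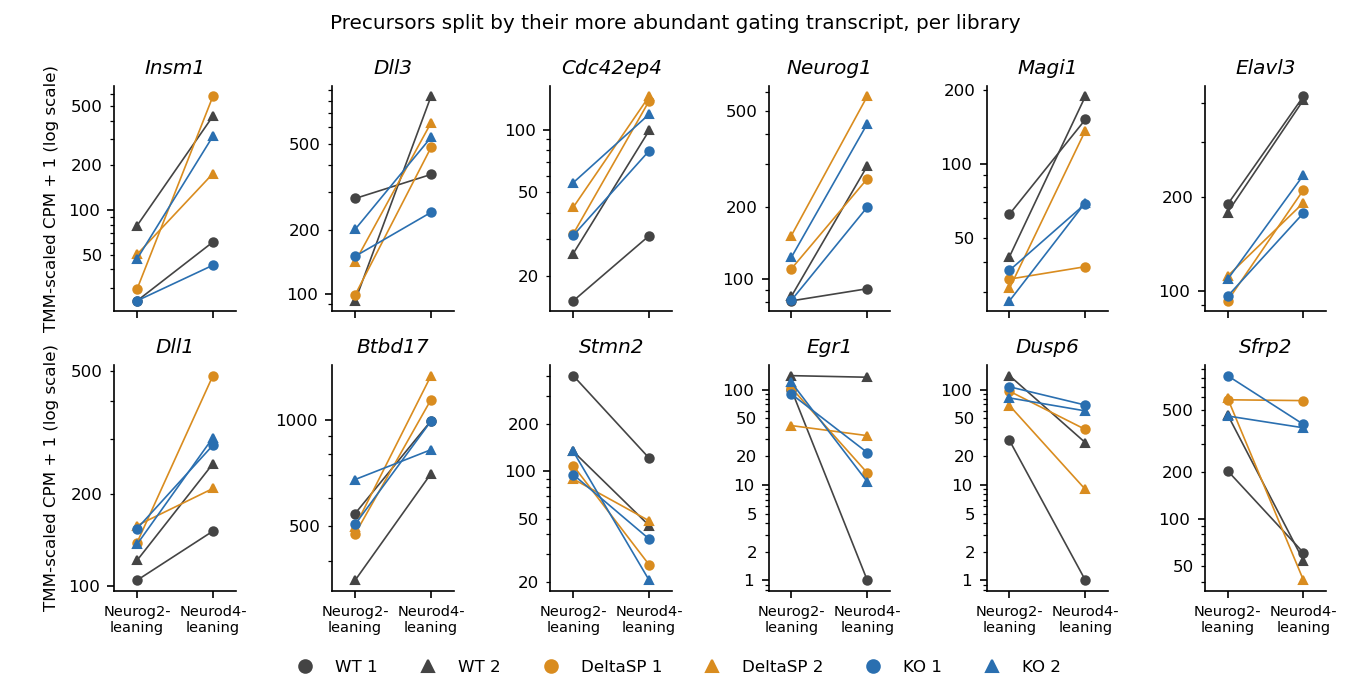
Levels of 12 genes (TMM-scaled CPM + 1, log scale) in Neurog2-leaning and Neurod4-leaning precursors, with 1 line per library. Insm1, Dll3, Neurog1, Elavl3, Dll1 and Btbd17 are higher with Neurod4 in all 6 libraries, and Stmn2, Egr1, Dusp6 and Sfrp2 lower in all 6.

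Genotypes were then compared within the precursors, each library being 1 sum. The targeted transcript 5330434G04Rik, the annotated long non-coding RNA of the edited locus (chromosome X, 105348282 to 105391776, minus strand), was low in these cells: 8 UMIs in WT 1, 8 in WT 2, 14 in DeltaSP 1, 22 in DeltaSP 2 and 0 in both KO libraries. Levels were 24.5, 11.6, 9.06 and 10.4 scaled CPM in the first 4. No UMI was seen in KO, and the DeltaSP libraries lay below both WT libraries, near WT 2. Taking 3 UMIs over the KO group as a floor, the transcript was at least 14.97-fold lower in KO than in WT (edgeR adjusted p = 0.0067), which became 0.057 without WT 1 and 0.060 without KO 2. The test was not passed for KO against DeltaSP (adjusted p = 0.13) or for DeltaSP against WT (log2 -0.73, SE 0.53, adjusted p = 0.63).

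The marker genes of the precursors did not pass in any genotype comparison. Dll1 was 110, 132, 153, 146, 173 and 141 scaled CPM in WT 1, WT 2, DeltaSP 1, DeltaSP 2, KO 1 and KO 2. Both edited genotypes lay above both WT libraries, but the KO difference of 0.35 (SE 0.21) had an edgeR adjusted p of 0.48. Dll3, at 355, 205, 142, 175, 163 and 216 scaled CPM in the same order, overlapped between KO and WT (log2 -0.52, SE 0.27, adjusted p = 0.39). Hes6, at 465, 270, 203, 288, 222 and 393, overlapped in all comparisons (KO log2 -0.23, SE 0.32, adjusted p = 0.82), and its sign turned to 0.21 without WT 1 and 0.13 without KO 1. Neurog1 (log2 0.30, adjusted p = 0.70), Insm1 (-1.14, 0.22), Olig2 (0.18, 0.76) and Tubb3 (-0.69, 0.24) did not pass between KO and WT either.

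In KO against WT, 246 of 9616 genes passed (2.56%), 17 higher in KO (0.177%) and 229 lower (2.38%), and 1470 had an unadjusted p under 0.05. In DeltaSP against WT 9 passed (0.0936%), 3 higher and 6 lower, with 1196 at an unadjusted p under 0.05. In KO against DeltaSP 3 passed (0.0312%), with 604 unadjusted. KO and DeltaSP share the WT libraries, so these are not independent. Without KO 2 the KO count fell to 25, without WT 1 to 86, and without WT 2 it was 310. Of 29 called genes followed for KO, leaving out WT 1 cost 20 the call, KO 2 also 20 and WT 2 11. Grb10, Hotairm1, Hoxb5os, Tk1 and mt-Nd3 kept it under every alternative run.

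Of the 17 genes that rose in KO precursors, 12 lie on chromosome 11, which holds 841 of the genes tested, or 8.75%. These are Spdl1, Rpa1, Tmem97, Scpep1, Eme1, Phb, Igfbp4, Taco1, Nup85, Sept9, Tk1 and Slc38a10; their chromosome was looked up after their values were seen. Tk1, the thymidine kinase of the salvage pathway, was 49.0 and 52.3 scaled CPM in WT, 168 and 151 in DeltaSP and 149 and 152 in KO. The 4 edited libraries did not overlap WT, with log2 differences of 1.56 for KO (SE 0.22, adjusted p = 0.0047) and 1.64 for DeltaSP (SE 0.22, adjusted p = 0.019). The DeltaSP call was lost without WT 1 (adjusted p = 0.061), without WT 2 (0.058) and without DeltaSP 1 (0.085). Eme1, a subunit of a DNA repair endonuclease, was 12.2, 18.9, 55.6, 51.9, 56.0 and 51.5 scaled CPM in the order used above, and rose in KO by 1.68 (SE 0.31, adjusted p = 0.012, but 0.061 without WT 1 and 0.060 without KO 2). Tmem97, a sterol-regulated membrane protein, rose by 1.15 (SE 0.23, adjusted p = 0.020, but 0.078 without WT 1, 0.055 without KO 1 and 0.101 without KO 2).

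The shift was not limited to the called genes. Over all 841 tested genes of chromosome 11 the median log2 difference was 0.41 in KO and 0.38 in DeltaSP against WT, with 79.2% and 80.5% of them above 0, while the median over all genes tested was 0.01 for KO and -0.01 for DeltaSP. Between KO and DeltaSP the chromosome 11 median was -0.01. Per library, over 607 genes of at least 20 CPM and relative to the median of all genes, chromosome 11 lay above WT 1 by 0.28 in DeltaSP 1, 0.30 in DeltaSP 2, 0.31 in KO 1 and 0.30 in KO 2, and above WT 2 by 0.42 to 0.46. WT 2 lay 0.14 below WT 1 on the same measure. On the other autosomes and X, medians against WT 1 ran from -0.19 to 0.09. The shift was also present outside the precursors, at 0.27 to 0.40 in Olig2 progenitors and 0.32 to 0.42 in cells with Mnx1 or Isl1, over the 8 pairs of an edited with a WT library. The number of copies of the chromosome was not measured here, and its part in the rises was not tested. Of the 841 genes 8 were called lower in KO, Grb10 among them, against 229 of all 9616 genes tested (2.38%).

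**Figure D4:**
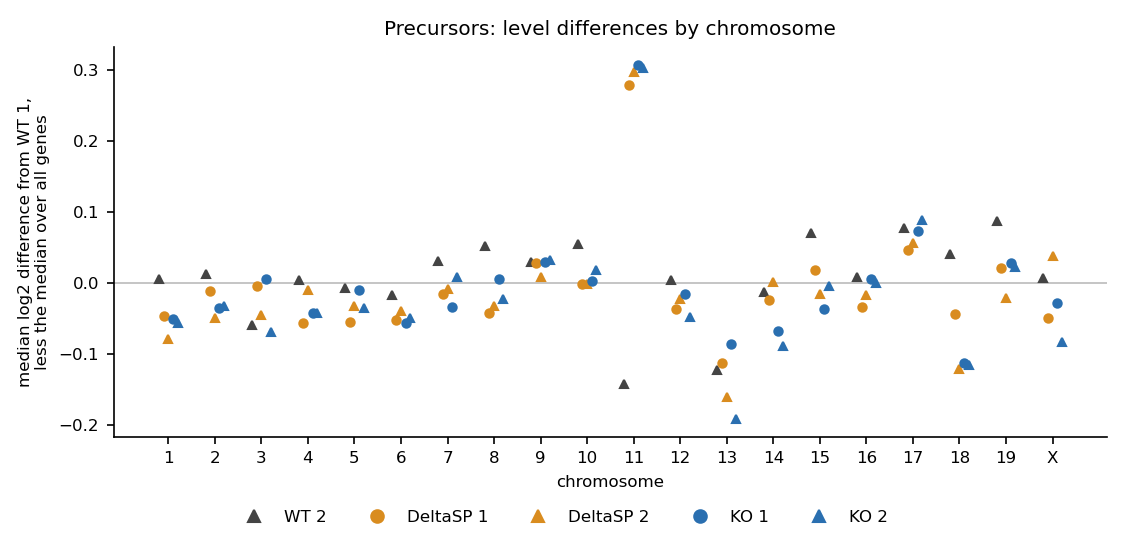
Median log2 difference in precursor levels from WT 1 over the genes of each chromosome, less the median over all genes, for the other 5 libraries. On chromosome 11 the 4 edited libraries lie between 0.28 and 0.31 while WT 2 lies at -0.14. No other chromosome rises above 0.09, and the lowest median among them is below -0.14.

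Outside chromosome 11, Bst2, an interferon-induced membrane protein, rose in both edited genotypes. Its UMIs were 1 and 2 in WT, 83 and 196 in DeltaSP and 34 and 81 in KO, so the groups did not overlap. KO held 13.7 times the WT level (exact 95% counting interval 4.56 to 67.2, adjusted p = 0.042) and DeltaSP 27.4 times (9.26 to 133, adjusted p = 0.029). The KO call was lost without WT 1 (0.20), WT 2 (0.25) or KO 2 (0.15), the DeltaSP call without WT 1 (0.205) or WT 2 (0.145), and in KO 1 a single cell held 16 of the 34 UMIs. Ifitm3, another interferon-induced gene, was 52.0 and 88.6 scaled CPM in WT, 235 and 282 in DeltaSP and 89.97 and 90.9 in KO. It rose in DeltaSP by 1.80 (SE 0.25, adjusted p = 0.019) and was lower in KO than in DeltaSP by 1.52 (adjusted p = 0.039). The former call was lost without WT 1 (0.0609) or DeltaSP 2 (0.0501), the latter without DeltaSP 2 (0.291), KO 1 (0.158) or KO 2 (0.209). Of 12 interferon-induced genes listed, 8 were tested. Of these, 1 rose in KO and 2 in DeltaSP, against 17 (0.177%) and 3 of all 9616 genes tested. All 8 had positive differences in both, where 4908 of all genes were positive in KO and 4761 in DeltaSP. In WT, Oasl2, Ifit1, Ifi27 and Rtp4 had 0 UMIs and Isg15 had 1. Such genes passed the low-count filter through the edited libraries, so their sign was fixed beforehand and carries no support. Oasl2 was at 0 UMIs in both WT libraries and at 32, 61, 5 and 23 in the edited ones, and Rtp4 at 0 against 28, 55, 8 and 57, without passing.

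Among imprinted genes, Grb10 and Cdkn1c fell in both edited genotypes and Dlk1 in DeltaSP. Grb10, an adaptor that dampens growth factor receptors, was 88.8 and 132 scaled CPM in WT, 15.5 and 17.9 in DeltaSP and 12.6 and 9.31 in KO. All edited libraries were far below WT, by 3.39 in KO (SE 0.29, adjusted p = 0.00029) and 2.76 in DeltaSP (SE 0.27, adjusted p = 0.0024) on the log2 scale. Cdkn1c, the cyclin-dependent kinase inhibitor p57, was 199, 405, 29.1, 28.3, 8.81 and 47.6 scaled CPM, lower by 3.43 in KO (SE 0.49, adjusted p = 0.0047) and 3.44 in DeltaSP (SE 0.49, adjusted p = 0.021). A single WT 2 cell held 102 of its 279 UMIs, and without WT 2 both calls were lost (adjusted p = 0.0513 and 0.112). The DeltaSP call was also lost without DeltaSP 1 (0.0732) or DeltaSP 2 (0.0548). Dlk1, a Notch-related membrane protein, passed in DeltaSP and not in KO against WT: 52.0 and 75.5 scaled CPM in WT, 10.4 and 11.3 in DeltaSP, and 67.3 and 63.5 in KO. The log2 differences were -2.60 for DeltaSP against WT (SE 0.29, adjusted p = 0.0048) and 2.57 for KO against DeltaSP (SE 0.24, adjusted p = 0.0020). Without WT 2 the former was -2.24 and lost its call, as it did with at least 2 UMIs of each gating gene. The latter lost its call with that same gate, on gating after thinning to 3000 UMIs and with the library sums thinned to the smallest. In KO 2 a single cell held 36 of the 116 Dlk1 UMIs. In all, 2 of 15 imprinted genes tested fell in KO and 3 in DeltaSP, against 229 (2.38%) and 6 of all 9616 genes tested. Differences were positive for 7 of the 15 in KO and 9 in DeltaSP, with medians of -0.03 and 0.20.

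Some Hox genes and Cyp26b1 fell in KO. Hotairm1, the non-coding RNA of the HoxA cluster, was 211 and 222 scaled CPM in WT, 57.6 and 60.4 in DeltaSP and 38.4 and 12.6 in KO, a log2 difference of -3.12 for KO (SE 0.34, adjusted p = 0.0019). In DeltaSP, -1.88 (SE 0.31) had an adjusted p of 0.055. Hoxb5os, Hoxa5 and Hoxb9 also fell in KO, by 3.20, 2.40 and 2.12 (adjusted p = 0.0042, 0.0090 and 0.022), and Hoxa5 and Hoxb9 lost the call without WT 1 (0.102 and 0.122) and without KO 2 (0.0935 and 0.151), Hoxb9 also without WT 2 (0.0991). Of 19 Hox genes tested 4 fell and 16 had negative differences in KO, with a median of -0.50. In DeltaSP 17 had negative differences, with a median of -0.51 and none passing. Over all 9616 genes tested, 4708 were negative in KO and 4855 in DeltaSP. Cyp26b1, an enzyme that degrades retinoic acid, was counted with 23 and 17 UMIs in WT, 23 and 4 in DeltaSP and 3 and 0 in KO. The WT level was 37.4 times that of KO (exact 95% counting interval 11.9 to 189, adjusted p = 0.017, but 0.17 without WT 1 and 0.10 without KO 2).

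Few neuronal differentiation genes passed. Of 24 pan-neuronal genes tested, 22 had negative differences in KO and 23 in DeltaSP, with medians of -0.86 and -0.72, but only Elavl3 passed, in KO. It was 226 and 203 scaled CPM in WT, 106 and 116 in DeltaSP and 100 and 111 in KO, a fall of 1.01 (SE 0.19, adjusted p = 0.015, but 0.0611, 0.0929 and 0.105 with WT 1, KO 1 or KO 2 left out). Of 31 proneural and commitment factors, 1 passed in KO, the helix-loop-helix factor Nhlh2, which fell by 1.47 (SE 0.33, adjusted p = 0.035). It was 49.0, 69.7, 16.8, 17.0, 15.1 and 29.0 scaled CPM, but 31 of its 48 WT 2 UMIs lay in 1 cell, and the call was lost without WT 1, WT 2 or KO 1 (0.087, 0.29 and 0.096). Epha5, an ephrin receptor of growing axons, fell by 2.18 in KO (SE 0.33, adjusted p = 0.0053, 0.060 without KO 2). None of 42 S phase, 52 G2 and M phase, 17 neural progenitor, 6 Notch effector or 4 Notch ligand genes passed in KO or DeltaSP against WT. S phase genes leaned upward, with 34 of 42 positive in KO and 39 in DeltaSP. Over all 9616 genes tested, 4908 were positive and 4708 negative in KO, and 4761 and 4855 in DeltaSP. The summed pan-neuronal level was highest in WT 1, the shallowest library, and its part in these signs was not tested.

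**Figure D5:**
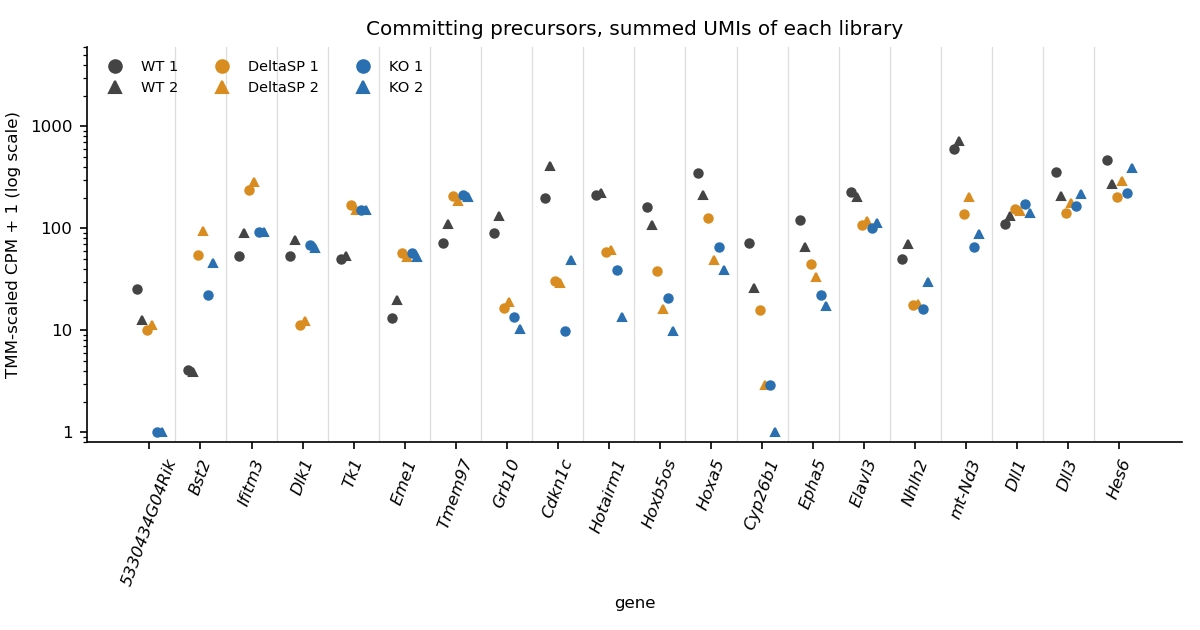
Levels of 20 genes in the precursors (TMM-scaled CPM + 1, log scale), with 1 symbol per library. Grb10, Cdkn1c, Hotairm1 and mt-Nd3 lie lower in all 4 edited libraries than in WT, Tk1 and Eme1 lie higher, Dlk1 is low in DeltaSP alone, and Dll3 and Hes6 overlap between KO and WT.

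Many of the 229 genes lower in KO were short. Ribosomal protein genes made up 40 of them, out of 90 tested, with a median log2 difference of -1.05 in KO, -0.28 in DeltaSP with none passing, and -0.75 between KO and DeltaSP with none passing. The 955 genes with the shortest transcripts, at most 1427 bases, gave 132 of the 229 calls (57.6%), with a median of -0.14 against 0.01 over all genes tested. Between the WT libraries the same genes differed by a median of 0.23, higher in WT 1. The part of length, depth or RNA quality in these falls was not tested. mt-Nd3, a short mitochondrially encoded subunit of complex I, was 597 and 712 scaled CPM in WT, 138 and 203 in DeltaSP and 64.8 and 86.5 in KO, a difference of -3.11 in KO (SE 0.26, adjusted p = 0.00029) and -1.94 in DeltaSP (SE 0.24, adjusted p = 0.012, but 0.0853 without DeltaSP 1). Of the 13 mitochondrially encoded genes 2 fell in KO, mt-Nd3 and mt-Nd4l, with a median of -0.22. A list of 7 genes at the edited locus or further along chromosome X was also tested. Its members Atrx and Atp7a start at 105797615 and 106027276. Beside 5330434G04Rik, Cox7b was the other listed gene to fall in KO, where 2.38% of all genes fell. Cox7b fell by 1.78 (SE 0.30, edgeR adjusted p = 0.0075). Its log2 difference was -1.57 without WT 1 and -1.50 without KO 2, and either omission lost the call.

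Whether genotype differences in precursors departed from those in Olig2 progenitors or in cells with Mnx1 or Isl1 was tested. The test used an interaction term and the library as a block. Against Olig2 progenitors, 7 of 10650 genes passed for KO (0.0657%) and 2 for DeltaSP (0.0188%). Against cells with Mnx1 or Isl1, 56 of 12722 passed for KO (0.440%) and 25 for DeltaSP (0.197%). Gadd45g and Dll3 are described first, both against cells with Mnx1 or Isl1.

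Gadd45g in precursors was 1508 and 1116 scaled CPM in WT, 649 and 848 in DeltaSP and 912 and 858 in KO, higher in WT than in any edited library. In cells with Mnx1 or Isl1 it was 538 and 317 in WT, 452 and 538 in DeltaSP and 571 and 708 in KO, which is the other way round for KO. The effect in precursors less that in the other cells was -1.18 for KO (SE 0.13, adjusted p = 2.8e-07) and -1.07 for DeltaSP (SE 0.13, adjusted p = 3.8e-06). Dll3 was 346 and 206 scaled CPM in WT precursors, 144 and 178 in DeltaSP and 167 and 223 in KO, against 240 and 228, 339 and 331, and 379 and 479 in cells with Mnx1 or Isl1. In those cells all edited libraries were above WT, and in precursors they were not. The difference of effects was -1.30 for KO (SE 0.16, adjusted p = 5.9e-06) and -1.20 for DeltaSP (SE 0.17, adjusted p = 3.4e-05). Both genes kept these calls under every alternative run. The share of cells with Mnx1 or Isl1 that also held Neurod4 and Neurog2 moved in the same direction, at 11.2% and 17.4% in WT, 27.4% and 30.2% in DeltaSP and 31.8% and 33.2% in KO, and its part in the differences was not tested. Against Olig2 progenitors, Tubb3 levels in precursors were 673, 401, 248, 299, 287 and 377 scaled CPM and progenitor levels 301, 229, 156, 135, 97.5 and 60.2, so that the KO effect was less negative in precursors, by 1.16 (SE 0.21, adjusted p = 0.021), a call lost without WT 2 (0.24) or KO 2 (0.519).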

How the data were processed

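Polyadenylated RNA of single cells was measured in 6 libraries, 2 for each genotype label. Each library has 1 deposited table of unnormalized UMI counts, genes by barcodes; per the submitters' processing notes and design text they were made with Cell Ranger 4.0 on mm10, and no normalization was applied before deposit.

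Counts of the member cells were summed per library and tested with edgeR 4.0.16 in R 4.3.3 (TMM scaling, low-count filter, quasi-likelihood test, Benjamini-Hochberg adjusted p under 0.05), with all 6 libraries in 1 fit and the library as a block for leanings and interactions. Standard errors are the log2 difference divided by the square root of its F statistic. Shares were compared with exact permutation tests. DESeq2 1.42.0 was an alternative. Other steps used Python 3.11.15, numpy 2.4.6, pandas 2.3.3 and scipy 1.17.1. The tests were run on simulated data beforehand. Doublets were not called.

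Genes were named as follows. For genotypes and leanings, up to 10 rises and 10 falls by size were taken among passing genes that moved one way in all libraries, at 20 CPM or more; where under 5 passed, the 5 smallest p were named. For interactions the 5 smallest p were taken. For cell sets, 12 genes each way at 50 CPM or more were taken by their lowest log2 ratio over the libraries. That is the least extreme library for the higher genes but the most extreme for the lower genes. The targeted transcript, gating genes, markers and list members were added. Members and lists were chosen with earlier results of these data known. Gene positions come from GENCODE and promoters from RefSeq (GRCm38.p6). Summed UMIs of the precursors ran from 372487 to 2229895 per library, which limits low genes. A few genes that the rule names are not reported here.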

Additional observations from a re-analysis of the deposited data

Results flagged for a closer look

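Effects that differed between cell sets by the interaction test stood out. For KO against Olig2 progenitors 7 genes passed, among them H19 (-2.96), Ccnd1 (-2.19), Mapt (3.07) and Tubb3 (1.16), all as log2 differences of effect. For DeltaSP 2 passed, among them Ccnd1 (-1.96). Against cells with Mnx1 or Isl1, 56 passed for KO, with Gadd45g (-1.18), Phox2a (-5.67), Dll3 (-1.30) and Insm1 (-1.79) among those with the smallest p. For DeltaSP 25 passed, with Gadd45g (-1.07), Phox2a (-6.38), Nhlh2 (-2.09) and Dll3 (-1.20) among them.

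The Phox2a values rest on WT 2, where 1 precursor held all 29 Phox2a UMIs. H19 had 1 UMI in WT 1 precursors, and without WT 2 its value was -0.25 (edgeR adjusted p = 0.995). Mapt rested on 8 and 2 UMIs in the WT precursors, and lost its call without WT 2 (0.201) or KO 2 (0.237), as did Tubb3 (0.24 and 0.519). Gating after thinning also ended the calls of H19, Mapt and Tubb3. Ccnd1 in DeltaSP moved to -1.46 (adjusted p = 0.202) without WT 1. Insm1 in KO moved to -0.99 (adjusted p = 0.654) without WT 2, and its call was also lost on gating after thinning. Insm1 in precursors was 44.7 and 126 scaled CPM in WT, 58.4 and 65.4 in DeltaSP and 24.5 and 62.2 in KO, so WT and KO overlapped there.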

How the results depend on the processing

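Over 87 results and 1125 alternatives, 859 kept direction and side of the threshold, 254 lost the call, 3 gained it and 9 changed sign. Counts below are in the order KO against WT, DeltaSP against WT, KO against DeltaSP, leaning, then the KO and DeltaSP interactions with Olig2 progenitors and with cells with Mnx1 or Isl1. Without a low-count filter they were 602, 280, 221, 92, 31, 14, 91 and 57. Gating after thinning gave 15 for DeltaSP against WT, 2 for leaning and 40 for the last interaction. Gating at 2 UMIs gave 18 for DeltaSP against WT, and DESeq2's Wald test 22 there and 5 for KO against DeltaSP. Thinned sums gave 0 for KO against DeltaSP. Without the 5% of cells with the most UMIs the KO interactions gave 13 and 91. Leaving out 1 library at a time gave 25 to 310, 5 to 22, 2 to 39, 31 to 55, 5 to 25, 3 to 7, 33 to 169 and 27 to 75. The cause was not tested, beyond fewer samples or genes where these were left out.

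Share differences (KO minus WT, DeltaSP minus WT, KO minus DeltaSP, in points) were 0.959, 0.816 and 0.142 after thinning, and 1.26, 0.990 and 0.268 with 2 UMIs of each gating gene. With 2000 genes and 5% mitochondrial UMIs as limits the first pair was 3.68 and 2.88. Leaving out 1 library gave 2.42 to 3.08, 1.48 to 2.14 and 0.634 to 1.24.

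Hes6 in KO against WT turned to 0.11 with the 2-UMI gate and 0.11 with the stricter cell filter, and leaving out 1 library gave -0.69 to 0.21. Gating after thinning turned Hes6 (-0.022) and Mib1 (-0.052) in leaning and H19 (1.77) in the KO interaction with Olig2 progenitors. Against cells with Mnx1 or Isl1, leaving out 1 library gave -6.01 to 2.06 for Phox2a in KO and -8.68 to 1.35 in DeltaSP, the positive values both without WT 2. With the replicate block, 218, 11 and 3 genes passed between genotypes. Same-numbered libraries did not pair (correlations of -0.0679, 0.07 and 0.0297). WT 1's depth limits every comparison with WT.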

Other observations

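Cd2, an adhesion receptor of lymphocytes, had 0 UMIs in both WT libraries and 25, 36, 22 and 33 UMIs in DeltaSP 1, DeltaSP 2, KO 1 and KO 2; the gene was picked after its values were seen. It was at least 6.53-fold higher in KO (edgeR adjusted p = 0.014) and at least 5.98-fold higher in DeltaSP (0.090), taking 3 UMIs over the WT group as a floor. The UMIs were spread over 14.8% to 24.5% of the KO precursors and 17.3% to 21.2% of the DeltaSP precursors, with at most 4 in 1 cell.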
